A study of Mus musculus with 7 samples.

Results

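The open chromatin around 10 genes of the Notch pathway was described in freshly isolated muscle stem cells (MuSCs), which express PAX7 and in resting muscle lie dormant on the fibers until injury. The genes were the receptors Notch1, Notch2 and Notch3, the ligands Dll1 and Jag1, the nuclear effector Rbpj and the target genes Hes1, Hey1, Hey2 and Heyl, out of 21883 protein-coding genes of the RefSeq annotation. Accessibility was measured by ATAC-seq, in which the Tn5 transposase cuts and tags DNA where chromatin is open. A locus was the RefSeq gene span with 20 kb added on both sides on mm10, and every peak that touched it was taken. Overlapping peaks of the 7 libraries were merged into regions, of which 110 of 95163 lay in the 10 loci.

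There were 4 libraries from Nedd4L-cKO mice and 3 from WT mice, each from 5000 MuSCs sorted straight from muscle, without culture. The study names as a limitation that taking MuSCs out of their niche compromises their quiescence. The mice of this ATAC-seq experiment were males of 5 to 6 weeks, of a line on a C57BL/6 background. Nedd4L-cKO mice carried 2 floxed alleles of Nedd4l, the gene of an E3 ubiquitin ligase, together with a Cre driven by Pax7 (Nedd4L fl/fl Pax7 cre/+), and the alleles of the WT mice were not given in the sources used here. The Cre is active from development on, so descendants of PAX7-expressing cells such as myofibers lack the gene too, and the deletion removes an exon of the catalytic domain and not the whole gene. The comparison asked whether MuSCs without Nedd4L, which the study places nearer to activation, have altered chromatin. The label of the cells was checked on promoters: all 10 MuSC markers were called open in all 7 libraries, among them Pax7, Myf5 and Cdh15, and none of 5 immune markers was called in any library. Over all 21436 genes with a start, 59.7% of promoters were called in all 7 libraries and 34.7% in none. Of the other cell types the sort could hold, 1 of 5 endothelial markers (Kdr), 0 of 4 fibro-adipogenic, 2 of 3 pericyte or smooth muscle markers (Myh11 and Cspg4) and 2 of 3 myofiber markers (Myh4 and Acta1) were called in all 7. Fibro-adipogenic Dcn was called in 5 libraries and Lum in 1, pericyte Rgs5 in 1 and myofiber Ckm in 5, and the part of other cells in the results was not tested.

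Notch receptors are cut when a ligand on a neighboring cell pulls on them, and their freed intracellular part moves to the nucleus. There it joins RBPJ on DNA and switches on Hes and Hey genes, whose products are repressors of the basic helix-loop-helix class. In MuSCs this pathway is known for holding cells in quiescence, and loss of Rbpj makes them leave it.

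Each library kept between 14429374 and 20084685 tags (single read ends that the peak caller counted) and had 69302 to 79158 peaks. The peak caller had read 28353538 to 42431517 tags per library and dropped the rest in its own filtering. WT replicate 3 had the fewest tags and was the only library of sequencing lane 2. The strength of a peak was read in 2 ways. Pileup is the mean number of extended tags stacked over the peak, and fold enrichment is that pileup over the local background, which the peak caller took as the genome-wide mean or the mean over the surrounding 10 kb, whichever was higher. Neither is scaled between libraries, so both are given as percentiles among all peaks of the same library, where 0 is the weakest peak and 100 the strongest. Peaks of sorted cells are a bulk measure, so fewer cells with an open site and a less open site in every cell cannot be told apart.

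The start sites on which the results turn are shown as the RefSeq promoter windows (GRCm38, the assembly of mm10), from 250 bases before to 50 bases after a start, 5′ to 3′ in the direction of transcription. RefSeq windows were matched for 7 of the 10 genes, and Hes1, Hey1 and Heyl had none. The Rbpj window is the start that was open, the Dll1 windows are an open start and a start at the edge of its peak, the Notch3 window is a start without a peak, and Hey2 and Jag1 are a target gene with RBPJ motifs and the promoter with the highest mean pileup percentile, which overlapped that of Heyl. Capitals mark matches, on either strand, to GTGGGAA (the RBPJ motif), CACGTG and CACGCG (HES and HEY motifs), CAGCTG (an E-box of myogenic factors) and TGANTCA (AP-1).

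Rbpj start inside the open region, chr5:53590096-53590395 (+ strand): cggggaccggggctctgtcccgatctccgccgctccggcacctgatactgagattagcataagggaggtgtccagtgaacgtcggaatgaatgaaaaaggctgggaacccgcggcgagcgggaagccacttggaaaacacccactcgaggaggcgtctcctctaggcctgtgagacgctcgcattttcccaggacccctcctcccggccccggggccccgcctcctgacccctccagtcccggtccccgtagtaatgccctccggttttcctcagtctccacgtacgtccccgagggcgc

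Dll1 inner start, chr17:15375774-15376073 (- strand): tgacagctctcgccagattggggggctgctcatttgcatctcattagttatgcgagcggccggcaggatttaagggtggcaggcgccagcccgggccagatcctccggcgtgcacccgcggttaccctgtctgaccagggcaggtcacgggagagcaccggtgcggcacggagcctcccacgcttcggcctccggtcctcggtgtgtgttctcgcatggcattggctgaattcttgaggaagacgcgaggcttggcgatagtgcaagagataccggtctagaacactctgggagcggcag

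Dll1 outer start, chr17:15376883-15377182 (- strand): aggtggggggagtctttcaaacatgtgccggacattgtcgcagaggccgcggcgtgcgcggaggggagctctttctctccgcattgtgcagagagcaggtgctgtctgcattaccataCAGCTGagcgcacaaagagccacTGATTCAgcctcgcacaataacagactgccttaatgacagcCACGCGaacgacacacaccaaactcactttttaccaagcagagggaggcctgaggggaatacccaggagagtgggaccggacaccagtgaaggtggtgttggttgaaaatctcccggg

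Notch3 start, chr17:32166841-32167140 (- strand): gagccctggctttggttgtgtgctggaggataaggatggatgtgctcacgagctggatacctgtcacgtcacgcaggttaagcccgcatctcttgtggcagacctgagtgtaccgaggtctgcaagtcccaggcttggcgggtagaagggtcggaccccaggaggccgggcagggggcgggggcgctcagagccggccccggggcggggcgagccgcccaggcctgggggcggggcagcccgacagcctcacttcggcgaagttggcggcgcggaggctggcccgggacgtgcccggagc

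Hey2 start, chr10:30842734-30843033 (- strand): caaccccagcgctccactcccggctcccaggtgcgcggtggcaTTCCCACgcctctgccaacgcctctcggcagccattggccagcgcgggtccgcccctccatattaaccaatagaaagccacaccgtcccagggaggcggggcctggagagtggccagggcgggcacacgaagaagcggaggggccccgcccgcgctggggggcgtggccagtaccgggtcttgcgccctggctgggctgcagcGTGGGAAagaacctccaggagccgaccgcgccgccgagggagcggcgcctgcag

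Jag1 start, chr2:137116471-137116770 (- strand): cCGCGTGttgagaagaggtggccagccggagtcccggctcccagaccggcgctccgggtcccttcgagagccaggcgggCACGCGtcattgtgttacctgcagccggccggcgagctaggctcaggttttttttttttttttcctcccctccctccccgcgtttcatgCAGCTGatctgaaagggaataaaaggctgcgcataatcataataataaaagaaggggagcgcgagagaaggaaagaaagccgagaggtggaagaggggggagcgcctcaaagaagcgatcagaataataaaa

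The Hey2 window held 2 RBPJ motifs, which start at positions -207 and -4 from the gene start, and such a motif was present in 6.39% of all 32817 promoter windows. No other window of these genes held GTGGGAA. The Jag1 window held CACGCG at -249 and -171 and the E-box at -82, the outer Dll1 window held the E-box, an AP-1 and a CACGCG match, and the Notch2 window held 1 CACGCG match at -42. Over all windows, CACGCG was present in 9.26%, CACGTG in 7.15%, the E-box in 16.3% and the AP-1 motif in 7.81%. The windows of Notch1, Notch3, Rbpj and the inner Dll1 start held none of these motifs. The 9 windows of the 7 genes had a GC content of 55.7% to 73.0%, against a median of 52.7% over all windows. A match is a description of these letters and not evidence of binding.

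Open promoters were found at almost all members. A promoter was called where a peak touched the gene start ± 1 kb. This was so for 8 of the 10 genes in every library, Notch1, Notch2, Dll1, Jag1, Hes1, Hey1, Hey2 and Heyl, against 59.7% of 21436 genes called in all libraries over the genome. Rbpj and Notch3 were the exceptions. The outer start of Rbpj was called in 0 of 7 libraries, yet both of its RefSeq promoter windows lay under a strong peak 33.07 kb further into the gene in 7 of 7. The start of Notch3 had no peak over it in any library: the nearest peak lay 983 to 2226 bp away, inside the gene, and only that of Nedd4L-cKO replicate 4 reached the 1 kb window.

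**Figure D1:**
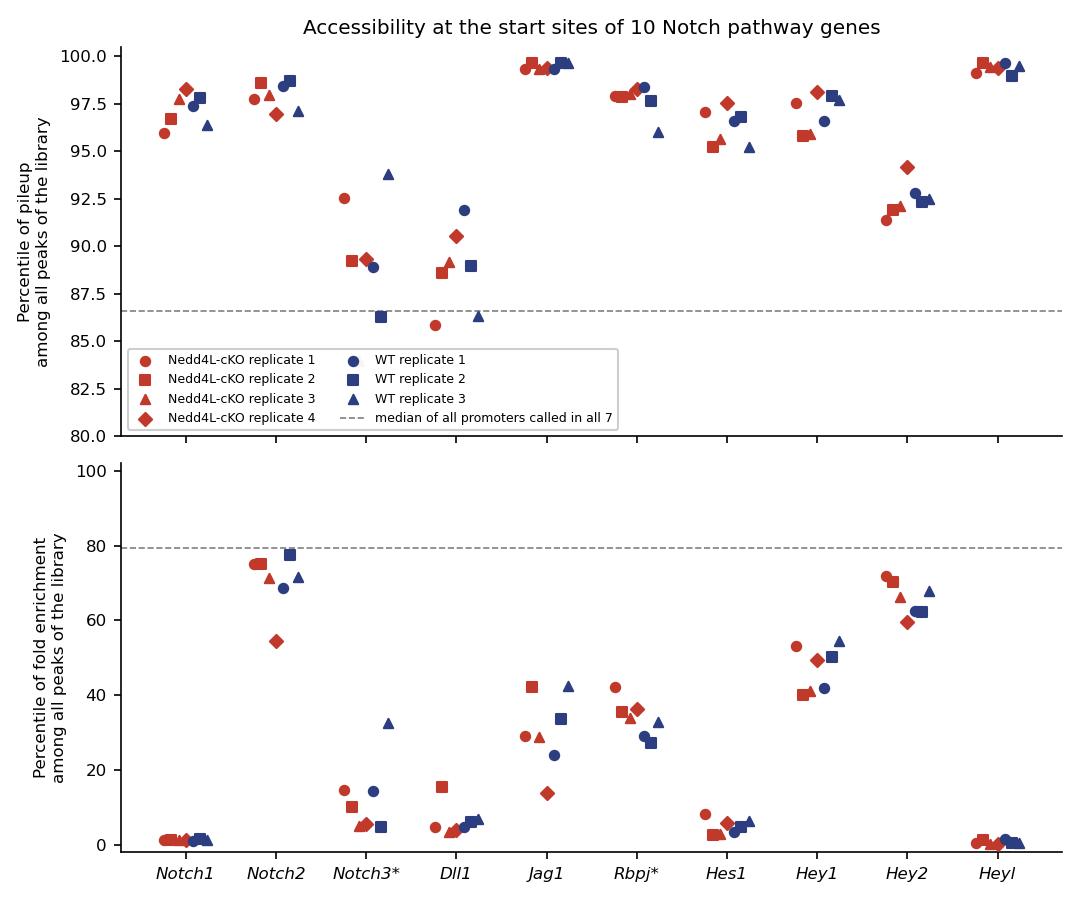
Percentile of pileup (top, axis from 80) and of fold enrichment (bottom) of the start-site region of each gene among all peaks of a library, 1 point per library, red for Nedd4L-cKO and blue for WT, with the replicate given by the shape. The dashed lines are the medians over all promoters called in all 7 libraries (86.6 and 79.3). The asterisks mark Rbpj, shown by the region over its inner starts, and Notch3, shown by the region that begins 0.98 kb inside the gene. Jag1 and Heyl are highest by pileup, and Notch1 and Heyl are lowest by fold.

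The receptors Notch1 and Notch2 had strong promoter peaks, and the peak nearest to the Notch3 start was weaker. The Notch1 promoter region (chr2:26500055-26504331) had pileup percentiles of 96.0, 96.7, 97.8 and 98.3 in the 4 Nedd4L-cKO libraries and 97.4, 97.8 and 96.4 in the 3 WT libraries. The groups overlapped, with means of 97.2 ± 1.03 (SD, n = 4) and 97.2 ± 0.712 (SD, n = 3). The Notch2 region (chr3:98013048-98015497) stood at 97.7, 98.6, 98.0 and 97.0 in Nedd4L-cKO and at 98.4, 98.7 and 97.1 in WT. It too overlapped between the genotypes. The Notch3 region (chr17:32163608-32165913) varied more, with 92.5, 89.3, 83.9 and 89.3 in Nedd4L-cKO and 88.9, 86.3 and 93.8 in WT, and the highest library was WT replicate 3.

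The ligands stood apart from each other. Jag1 (chr2:137114162-137117718), which encodes the Jagged-type ligand, had percentiles of 99.4, 99.7, 99.4 and 99.4 in Nedd4L-cKO and 99.3, 99.6 and 99.7 in WT. Dll1 (chr17:15375137-15377022), which encodes a Delta-like ligand, had 85.8, 88.6, 89.2 and 90.5 in Nedd4L-cKO and 91.9, 88.99 and 86.3 in WT. Every library placed Jag1 above Dll1, and in neither gene were the genotypes apart. The Dll1 peak covered the inner RefSeq start in 7 of 7 libraries and the outer start, 1109 bp further upstream, in 2 of 7.

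Rbpj, the DNA-binding partner of the Notch intracellular domain, had its strong region at chr5:53588849-53591479, over both annotated inner starts. Its pileup percentiles were 97.9, 97.8, 98.0 and 98.3 in Nedd4L-cKO and 98.4, 97.7 and 96.0 in WT. The low value was that of WT replicate 3, and the groups overlapped. The other 4 regions of the locus called in all 7 libraries had median percentiles of only 13.9 to 34.3.

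The targets Hes1, Hey1, Hey2 and Heyl, which encode the repressors induced by Notch, were all open at their starts. For Hes1 (chr16:30063055-30067288) the values were 97.1, 95.2, 95.7 and 97.6 in Nedd4L-cKO and 96.6, 96.8 and 95.2 in WT. For Hey1 (chr3:8666588-8668190) they were 97.5, 95.8, 95.9 and 98.1 in Nedd4L-cKO and 96.6, 97.9 and 97.7 in WT. For Hey2 (chr10:30842230-30844548) they were lower, with 91.4, 91.9, 92.1 and 94.2 in Nedd4L-cKO and 92.8, 92.3 and 92.5 in WT. In all 3 genes the WT libraries lay within the range of the Nedd4L-cKO libraries or at its edge. Heyl (chr4:123233362-123234195) stood at 99.1, 99.7, 99.4 and 99.4 in Nedd4L-cKO and at 99.7, 98.95 and 99.5 in WT, again with overlap.

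Ranked by the mean over the 7 libraries, the order was Jag1 (99.5), Heyl (99.4), Notch2 (97.9), Rbpj (97.7), Notch1 (97.2), Hey1 (97.1), Hes1 (96.3), Hey2 (92.5), Notch3 (89.1) and Dll1 (88.8). Among neighbors in this order, the ranges over libraries were apart only between Heyl and Notch2 and between Hes1 and Hey2. All other neighbors overlapped. Set among the 12803 promoters called in all libraries, Heyl had a higher pileup percentile than 97.9% of them, Jag1 than 97.8%, Notch2 than 91.5% and Dll1 than 57.4%.

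By fold enrichment the same peaks stood in a different place. Heyl had a fold percentile of 0.616, 1.34, 0.365 and 0.335 in Nedd4L-cKO and 1.64, 0.641 and 0.608 in WT, although it was among the highest by pileup. Notch1 lay between 1.02 and 1.55, Hes1 between 2.62 and 8.30 and Dll1 between 3.56 and 15.6, where the highest value was that of Nedd4L-cKO replicate 2. Jag1 reached 13.7 to 42.5, Rbpj 27.3 to 42.3, Hey1 40.1 to 54.6, Hey2 59.7 to 72.0 and Notch2 54.6 to 77.4. The lowest Jag1 value was that of Nedd4L-cKO replicate 4, whose peak was 3520 bp long. In the other libraries the Jag1 peak was 1305 to 1602 bp long and the fold percentile 24.0 to 42.5. The Notch3 peak that reached the 1 kb window, that of Nedd4L-cKO replicate 4, had 5.64. In units of the ratio itself, the median fold was 2.06 for Heyl and 2.21 for Notch1, against 4.41 for Notch2.

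The local background that pileup and fold imply was high at these genes. At the Heyl promoter it was 17.5 to 20.5 times the genome-wide background of the library, at Notch1 13.1 to 14.9 times, at Jag1 10.7 to 13.3 times and at Hes1 10.7 to 12.7 times. At Hey2 it was 5.22 to 6.38 times, and the median over all promoters called in all libraries was 4.05 times. Fold is by construction the ratio of pileup to this background. Of all promoters called in every library, 99.9% had a lower background than Heyl, 99.5% a lower one than Notch1 and 98.97% a lower one than Hes1.

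The same was seen in the loci as a whole. Between 23.5% and 28.2% of the peaks in the 10 loci had a pileup at or above the 80th percentile together with a fold at or below the 10th, against 1.75% to 2.07% of all peaks of a library. Among the 58 regions of the loci called in all 7 libraries, 20 of them met both limits by their medians, and they came from 7 of the 10 genes, with 5 at Heyl, 4 each at Notch1 and Notch3, and 3 at Notch2. Jag1, Rbpj and Hey2 had none. The share of all 53245 regions called in all 7 libraries that met both limits is not given here. The MuSC marker promoters had a median pileup percentile of 86.5 and a median fold percentile of 6.34.

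**Figure D2:**
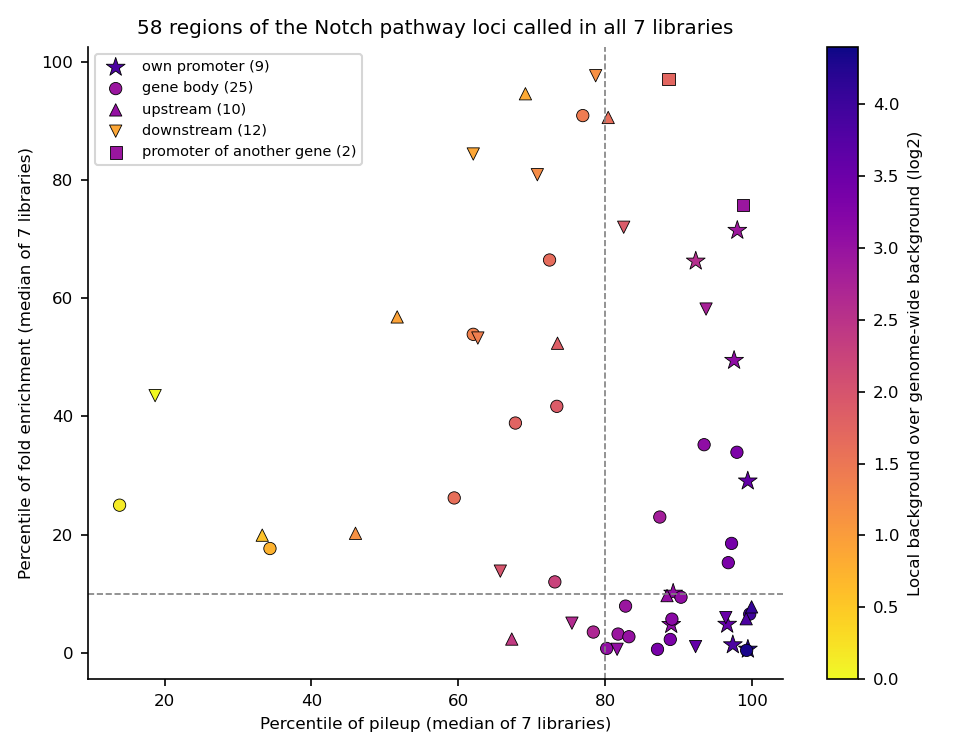
Each point is 1 of the 58 regions of the Notch loci called in all 7 libraries, placed by its median percentile of pileup (horizontal axis) and of fold enrichment (vertical axis), with the shape giving its position relative to the gene and the color the local background over the genome-wide background on a log2 scale. The dashed lines mark the 80th percentile of pileup and the 10th of fold, and 20 regions, mostly dark, lie in the lower right corner. The inner starts of Rbpj are drawn as gene body, and the Notch3 region nearest to its start as own promoter.

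Beyond the promoters, the loci differed widely in how much open chromatin they held. Distances are given from the outer gene start to the nearest edge of a region, negative upstream. Peaks covered 16.99% of the Heyl locus, more than in 98.8% of all protein-coding loci, 14.1% of the Notch1 locus, 13.4% of the Dll1 locus and 11.5% of the Hes1 locus. Notch3 followed with 10.4%, Jag1 with 9.02%, Notch2 with 7.72% and Hey1 with 6.40%. Rbpj with 4.71% and Hey2 with 4.21% were near the median of 4.29% over 21883 loci. Of the 110 regions, 9 touched the 1 kb window of a member's own start, that of Notch3 through the peak of Nedd4L-cKO replicate 4 alone. A further 57 lay in a gene body, 26 downstream, 16 upstream and 2 at the promoters of the neighbors Sec16a and Fam120b. Of all 110 regions, 58 (52.7%) were called in all 7 libraries, 32 in 2 to 6 and 20 (18.2%) in a single library. Over the series, 56.0% were called in all and 14.7% in just 1 library.

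Heyl stood in a cluster of strong regions. Between -6.97 kb, upstream of its start, and the end of the gene, 6 successive regions were called in all 7 libraries, with median pileup percentiles of 99.2, 99.9, 99.4, 99.3, 99.7 and 97.2. The highest of them lay upstream at -3.90 kb (chr4:123227616-123229660), and its percentile was between 99.7 and 99.96 in every library. Regions at or above the 99th percentile by median numbered 660 in the series, and 5 of them lay in the Heyl locus. The only other protein-coding locus with as many was that of Nt5c1a, its upstream neighbor, whose 20 kb flanks take in the same stretch.

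**Figure D3:**
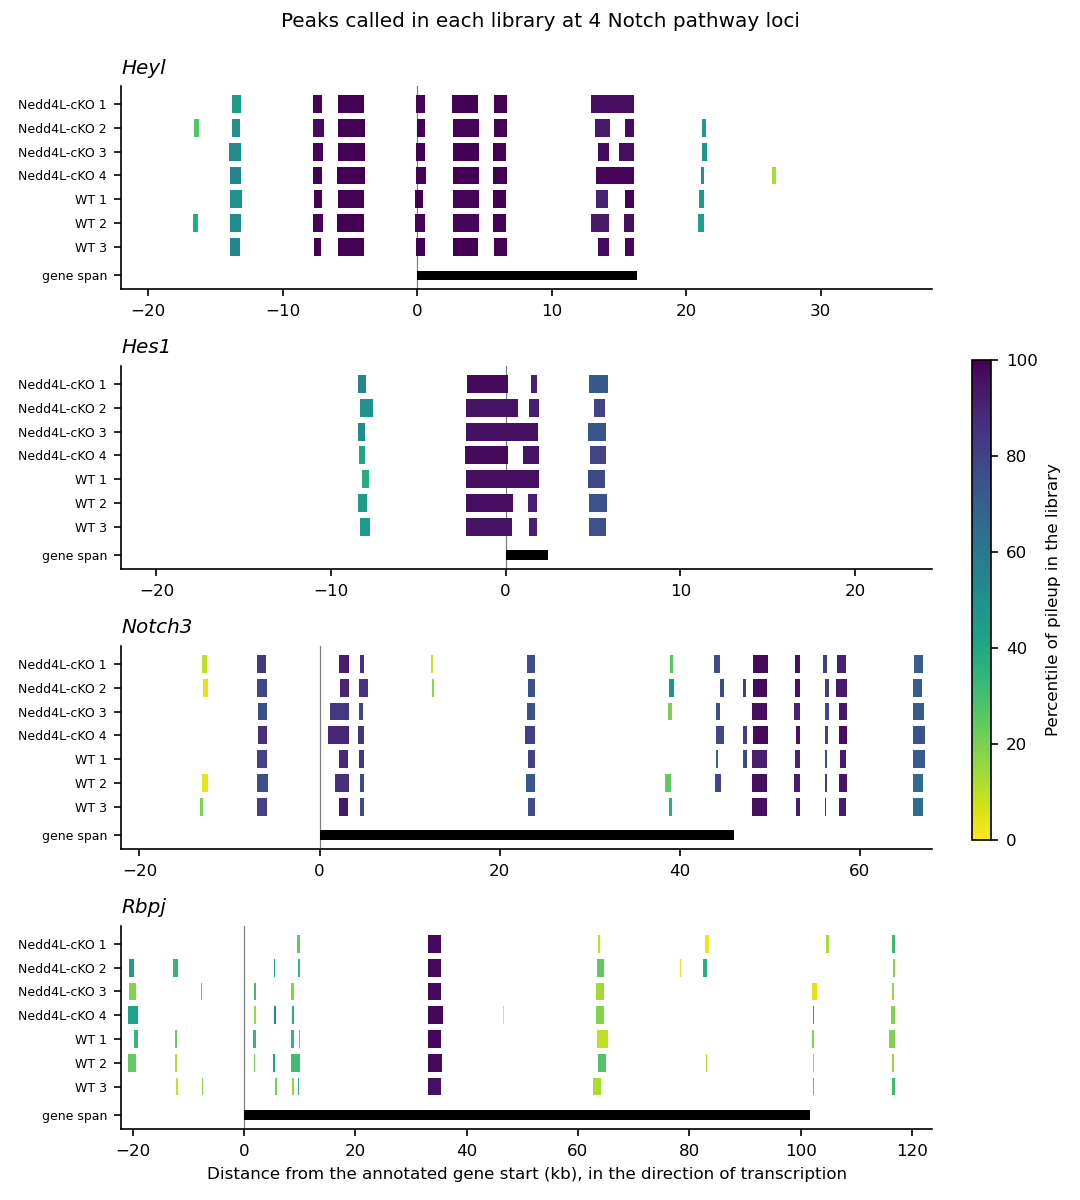
Peaks of each library (1 line per library) at Heyl, Hes1, Notch3 and Rbpj by distance from the annotated gene start in kb, colored by the percentile of pileup within the library, with the gene span as a black bar below. The dark peaks line up in all 7 libraries at Heyl from upstream of the start to the end of the gene, at Hes1 around the start, at Notch3 mainly beyond the end of the gene, and at Rbpj in a single region 33.07 kb inside the gene.

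At Hes1 the open region reached from about -2.3 to 1.9 kb around the start, across most of the short gene. It was called as 1 peak in Nedd4L-cKO replicate 3 and WT replicate 1 and as 2 peaks in the other 5 libraries. A further region 4.73 kb past the start (chr16:30070091-30071197) had a median pileup percentile of 75.5, and a weaker one upstream, at -7.61 kb, had 46.0. At Hey1 a region 1.94 kb into the gene (chr3:8664547-8665098) had a median of 89.1. Hey2 had no region called in all 7 libraries apart from its promoter.

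Among the receptors, Notch3 had its strongest region not at the start but 48.06 kb past it, beyond the end of the gene (chr17:32117035-32118833), with a median percentile of 96.4. With regions 52.71 and 57.34 kb past the start, at 92.3 and 93.7, it formed a downstream group. Notch2 had the most regions, 32 in all, and 11 of these were shared by the 7 libraries while 10 were found in just 1 library. Its strongest distal region lay 10.69 kb into the gene (chr3:98024226-98026679), with a median of 96.8. At Notch1 the strongest distal region lay 14.76 kb into the gene (chr2:26487184-26489066), at 90.3. The strongest regions of the ligands classed as distal were 6.23 kb into Jag1 (chr2:137108864-137110290), at 87.4, and 4.02 kb into Dll1 (chr17:15371936-15372908), at 82.8. At Jag1 a stronger peak began 1.24 to 1.45 kb into the gene, at 97.3 to 99.1, in every library but Nedd4L-cKO replicate 4. In that library a single peak joined it to the start, so the merged promoter region of Jag1 took it in. The annotation used here gave gene spans without exons, so exonic and intronic positions were not analysed here.

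No member region passed the test for a difference between the genotypes. The number of peaks in the 10 loci was 77, 84, 78 and 84 in Nedd4L-cKO and 80, 85 and 76 in WT, that is 80.8 ± 3.77 (SD, n = 4) and 80.3 ± 4.51 (SD, n = 3). The ranges overlapped and the difference of 0.417 peaks gave p = 0.914 in a two-sided exact permutation test, in which the smallest p possible with 4 against 3 libraries is 0.0286. The promoters called numbered 8, 8, 8 and 9 in Nedd4L-cKO and 8 in each WT library, a difference of 0.25 (exact permutation p = 1.00). Gene by gene, the lowest exact permutation p was 0.2 for the number of peaks (adjusted 1.00 over 10 genes) and 0.114 for the share of the locus covered (adjusted 0.762), the latter at Notch3 with 11.1% ± 0.692 in Nedd4L-cKO and 9.57% ± 1.69 in WT.

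Shifts in strength were tested with limma on all 53245 regions called in all 7 libraries, after the ranks within each library were turned into normal scores, whose unit is 1 SD of the ranks. Of the 58 member regions, 0 had an adjusted p below 0.05 by fold or by pileup, and the same was true of all 53245 regions (0% by either measure). At an unadjusted p below 0.05 there were 3 of 58 by fold (5.17%), against 3.98% of all regions, and 2 of 58 by pileup (3.45%), against 2.71%. By fold 1 of the 58 was higher in Nedd4L-cKO (1.77% of all regions) and 2 were lower (2.21%), and by pileup 2 were higher (1.46%) and 0 lower (1.25%). These shares were near the background.

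The promoters were close in the 2 genotypes by pileup. Counted as Nedd4L-cKO minus WT in normal scores, the difference was 0.01 for Notch1 (95% interval -0.26 to 0.28), -0.07 for Notch2 (-0.37 to 0.23) and -0.06 for Notch3 (-0.42 to 0.30). It was -0.04 for Dll1 (-0.29 to 0.21), -0.07 for Jag1 (-0.32 to 0.19) and 0.10 for Rbpj (-0.16 to 0.36). Among the targets it was 0.03 for Hes1 (-0.22 to 0.28), -0.08 for Hey1 (-0.36 to 0.20), -0.01 for Hey2 (-0.20 to 0.19) and 0.0006 for Heyl (-0.31 to 0.31). Every interval held 0, and the intervals refer to ranks and not to the amount of open chromatin. By fold, the start-site differences ran from -0.29 for Notch3 (-0.88 to 0.30) to 0.19 for Rbpj (-0.18 to 0.56). Among the others were -0.17 for Jag1 (-0.74 to 0.39) and -0.13 for Heyl (-0.60 to 0.34). The intervals by fold were wider than by pileup, and each held 0. Over all 58 regions the differences by fold lay between -0.81 and 0.47.

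The lowest p by fold lay at Notch3 in each direction. The lowest of all was that of a region 55.98 kb past the start of Notch3 (chr17:32110343-32110918), with fold percentiles of 0.602, 0.203, 0.406 and 0.587 in Nedd4L-cKO and 1.58, 3.22 and 8.64 in WT. The means were 0.450 and 4.48, at the bottom of the scale, where small steps in percentile make large steps in normal scores. All WT libraries were above all Nedd4L-cKO libraries, and the difference was -0.81 ± 0.21 (SE) in normal scores, with an unadjusted p of 0.0033 and an adjusted p of 1.00 in limma. A region upstream of Notch3, at -5.72 kb from its start (chr17:32172616-32173871) went the other way, with 92.4, 90.6, 91.4 and 94.8 in Nedd4L-cKO and 87.3, 81.9 and 83.2 in WT, a difference of 0.47 ± 0.17 (SE, limma adjusted p = 1.00). By pileup the differences of these Notch3 regions were smaller, at -0.10 (95% interval -0.37 to 0.17) and 0.08 (-0.20 to 0.36). At the end of Heyl (chr4:123246466-123249690) the fold percentiles were 13.4, 22.0, 11.8 and 17.03 in Nedd4L-cKO and 54.1, 18.5 and 32.8 in WT. There the groups overlapped (-0.61 ± 0.25, limma adjusted p = 1.00), and the difference was -0.33 without WT replicate 1. By pileup it was -0.09 with all libraries (95% interval -0.44 to 0.25). The same region was called as 1 peak in some libraries and as 2 in others. For 2 peaks, the percentile shown is that of the peak with the higher pileup, while limma took the higher fold.

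By pileup the lowest p belonged to the strong downstream region of Notch3 named above, with percentiles of 97.4, 97.7, 96.4 and 97.5 in Nedd4L-cKO and 92.4, 96.1 and 96.1 in WT. The difference was 0.29 ± 0.12 (SE, limma adjusted p = 1.00), and the groups did not overlap. Without WT replicate 1, the lowest library, the difference was 0.17. A region 49.14 kb into Notch2 (chr3:98062681-98064467) had 73.3, 76.3, 76.7 and 77.1 in Nedd4L-cKO and 73.4, 68.0 and 65.5 in WT, a difference of 0.23 ± 0.10 (SE, limma adjusted p = 1.00) by pileup and 0.38 ± 0.19 by fold. In the other direction by pileup, the lowest p values were those of a region upstream of Heyl at -6.97 kb (-0.24 ± 0.17) and of a region 8.51 kb into Rbpj (-0.19 ± 0.14), both with an unadjusted p of 0.210 in limma. Neither was apart between the genotypes, and the differences were -0.09 for Heyl without Nedd4L-cKO replicate 2 and -0.09 for Rbpj without Nedd4L-cKO replicate 3.

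Percentiles that did not overlap between the genotypes were found in 3 of the 58 regions by fold, against 4.96% of all regions, and in 1 of 58 by pileup, against 3.23%. By fold, 2 were higher in every Nedd4L-cKO library (3.08% of all regions) and 1 was lower (1.88%), and the region by pileup was higher (1.85%), with none lower (1.37%). By fold these were the pair at Notch3 described above and the region over the inner starts of Rbpj. There the fold percentiles were 42.3, 35.6, 33.9 and 36.4 in Nedd4L-cKO and 29.1, 27.3 and 32.7 in WT, with a difference of 0.19 (95% interval -0.18 to 0.56) and an unadjusted p of 0.282 in limma. The share was near the background of the series.

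**Figure D4:**
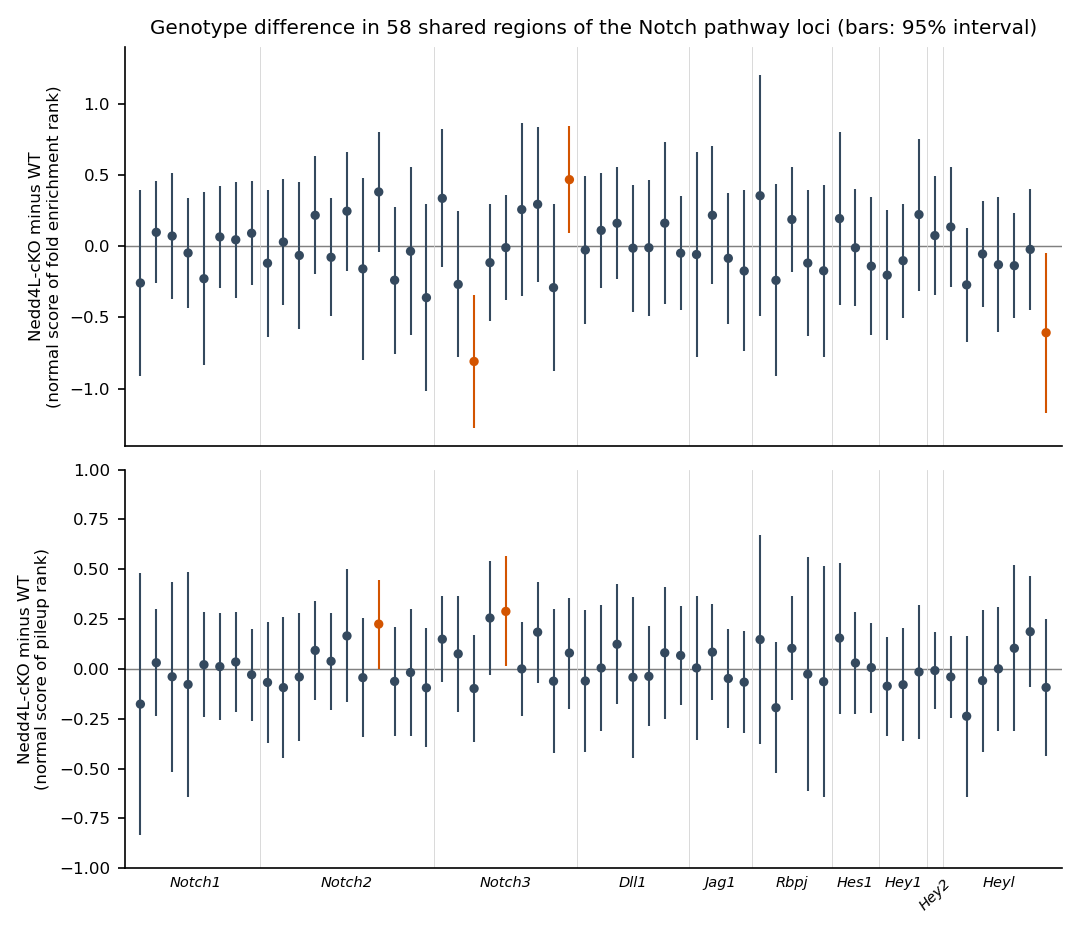
Difference between the genotypes (Nedd4L-cKO minus WT, in normal scores of the rank, with 95% intervals from limma) in each of the 58 regions called in all 7 libraries, by fold enrichment (top) and by pileup (bottom), ordered along the chromosome within each gene. Orange marks an unadjusted p below 0.05, which was reached by 3 regions by fold and 2 by pileup, and no region had an adjusted p below 0.05.

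No member region was called in every library of a genotype and in none of the other, and over the series 0.0694% of regions were called in all Nedd4L-cKO libraries alone and 0.082% in all WT libraries alone. The nearest to it by the share of libraries were 4 regions. A region upstream of Rbpj at -11.92 kb was called in 1 of the 4 Nedd4L-cKO libraries and in all 3 WT libraries. Regions 26.41 kb past the start of Dll1 and 32.50 kb into Jag1 were each called in 0 of the 4 Nedd4L-cKO libraries and in 2 of the 3 WT libraries. For a region 76.06 kb into Notch2 the calls were 4 of 4 in Nedd4L-cKO and 1 of 3 in WT. The Rbpj region was weak where it was called, at pileup percentiles of 7.97 to 33.7. Where called, the Dll1 region stood at 49.1 and 33.0, the Jag1 region at 12.6 and 31.1 and the Notch2 region at 47.2 to 62.4. How often such uneven calls occur over the series is not given here, so they are no sign of a difference.

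The rest of the pathway was open as well. Of 46 further genes of the pathway, among them the fringe glycosyltransferases, the cleavage enzymes, the coactivators and the ubiquitin ligases acting on ligands and receptors, 43 (93.5%) had a promoter called in all 7 libraries, against 59.7% of all genes. Their median pileup percentile was 87.8 and their median fold percentile 59.7, against 86.6 and 79.3 over all promoters called in all libraries. The highest by pileup were Mib2 (98.7), a ligase that acts on Notch ligands, Dtx4 (98.4), a Deltex-type ligase, and Adam10 (97.7), a protease that cuts the receptor. The lowest were Psen2 (31.9), a subunit of gamma-secretase, Dll3 (42.8), a divergent Delta-like protein, and Dtx1 (44.3). Hes3 was called in no library, Notch4 in 5 and Helt in 1. In limma, 0 of the 43 promoter regions passed the adjusted test in either direction, and at an unadjusted p below 0.05 there were 3 by fold (Dll4, Hes2 and Mib1), where 1.77% of all regions were higher in Nedd4L-cKO at this p, and 1 by pileup (Mib1), where 1.46% were. All of these were higher in Nedd4L-cKO, and 0 were lower by either measure.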

How the data were processed

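The authors performed ATAC-seq on 5000 sorted MuSCs per library (OMNI-ATAC, with cells gated as ITGA7 and Hoechst positive and negative for CD31, CD45, CD11b and SCA1). Per the labels and the study's methods, reads were trimmed with Trimmomatic 0.39, aligned to mm10 with BWA 0.7.17, filtered by mapping quality and freed of duplicates with Picard 2.26.3. Per the file headers, peaks were called by the authors in each library on its own with MACS2 2.2.7.1, in broad mode and without a control, with read ends moved by -100 bp and lengthened to 200 bp to center them on the Tn5 cut. The deposited pileup is a signal (coverage, unscaled). The authors' fold enrichment is the ratio of pileup to local background. Both the p-value and the q-value were deposited as -log10.

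Peaks on the 19 autosomes, X and Y were used, without the 2 mitochondrial peaks per library. The background of a peak was recovered as (pileup + 1) / fold - 1. Gene spans and promoter windows came from RefSeq on GRCm38, and the strand of Hes1, Hey1 and Heyl from GENCODE. Peaks that overlapped by at least 1 bp were merged. Where several peaks of a library lay in a region, limma took the highest value of each measure. The percentiles printed, by pileup and by fold, are those of the peak with the highest pileup. Values per library were compared by exact permutation tests over all 35 splits, and ranks by limma 3.58.1 (R 4.3.3, lmFit and eBayes, no covariate, Benjamini-Hochberg over all regions). The limma fit was tested on simulated data. The shifts planted there were larger than any member difference found here. Recovery of shifts of the size seen here was not tested. Python 3.11.15 with scipy 1.17.1 was used for the rest. Groups and replicate numbers came from the labels. Each library is 1 sample of its genotype, and p-values measure the spread between these samples.

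The regions named are, by rule, all promoters, the strongest distal region per gene called in all libraries, and the 2 regions with the lowest p in each direction by each measure. The regions without overlap, the Heyl cluster, the Rbpj inner starts and the partly called regions were picked after their values were seen. Members, gene lists and markers were chosen with earlier results of these data known. Alternatives were a -log10 q of at least 5, gene spans alone, equal numbers of peaks, a window of 2.5 kb, other overlap, rank and limma settings, and leaving out each library. A count with any RefSeq start as gene start was added after seeing the data.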

Additional observations from a re-analysis of the deposited data

Results flagged for a closer look

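Among 51 measures checked in the 4 Nedd4L-cKO libraries, 6 had a library whose distance from the others exceeded Dixon's critical value. Chance gives about 1 in 20 for continuous values, but 4 of the 6 are small counts in which a single library differed by 1 from 3 equal ones, where the limit is always passed and nothing is tested. In Nedd4L-cKO replicate 2 the Dll1 promoter had a fold percentile of 15.6, against 3.56 to 4.66 in the other 3, and the Jag1 promoter a pileup percentile of 99.68, against 99.36 to 99.41. In Nedd4L-cKO replicate 3 the Dll1 locus had 7 peaks where the other 3 had 8, the Hes1 locus 3 where they had 4, and the Hey2 locus 2 where they had 1. WT replicate 3 also had 7 peaks at Dll1, and WT replicate 1 also had 3 at Hes1. In Nedd4L-cKO replicate 4, the library with the most tags, 9 member promoters were called where the others had 8, the added one being Notch3. The WT group of 3 libraries was not checked in this way.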

How the results depend on the processing

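Under all alternatives run, 0 member regions had an adjusted p below 0.05 in limma, with 1 to 4 at an unadjusted p below 0.05 by fold and 0 to 3 by pileup. The difference in peaks in the loci (0.417) became -2.17 with a -log10 q of at least 5 (exact permutation p = 0.429) and ranged from -1.75 (without WT replicate 3, the only library of lane 2) to 2.75 when libraries were left out in turn. The difference in promoters called (0.25) became -0.17 with a window of 2.5 kb and ranged from 0 to 0.333 when libraries were left out. Regions called in a single genotype rose from 0 to 1 for Nedd4L-cKO where a peak had to cover at least 0.5 of the region (at Notch1), and leaving out libraries gave 0 to 1 for Nedd4L-cKO (1 without WT replicate 1) and 0 to 2 for WT (1 without Nedd4L-cKO replicate 2, 2 without WT replicate 3). The median promoter percentile of 97.1 became 96.2 among regions called in all libraries, and 97.0 to 97.3 when libraries were left out.

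Replicate numbers are shared by the genotypes, but same-numbered libraries did not deviate together (r = -0.12, 0.03 and -0.12). With a replicate block, which drops Nedd4L-cKO replicate 4, the difference in peaks was -0.667, the difference in promoters was 0, and 0 regions passed by either measure. An exact test that flips the sign of the difference in each same-numbered pair gave p = 0.75 for the peaks. With so few pairs its p cannot fall below 0.05, so it decides nothing. The block turned the pileup difference of Notch1 to -0.041 and of Hes1 to -0.012. A depth covariate turned Notch1 to -0.035, and regions called in at least 5 libraries turned Heyl to -0.0048. Leaving out libraries turned the sign at 8 start sites, with ranges of -0.051 to 0.068 for Notch1, -0.17 to 0.0070 for Notch2, -0.16 to 0.074 for Notch3, -0.12 to 0.048 for Dll1, -0.0064 to 0.20 for Rbpj, -0.032 to 0.078 for Hes1, -0.038 to 0.0095 for Hey2 and -0.12 to 0.10 for Heyl. Jag1 (-0.14 to -0.026) and Hey1 (-0.15 to -0.028) kept their sign but moved by more than 1.5 times. The cause of these turns was not tested. Counting any RefSeq start raised the promoters called from 8 to 9 per library, and from 9 to 10 in Nedd4L-cKO replicate 4. With 14429374 to 20084685 tags per library and no read counts per region, weak regions are limited by the calling threshold.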
